A study of Mus musculus with 2 samples.

Results

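Keratinocytes of the upper hair follicle, recognised by the keratin Krt79, were compared between imiquimod-treated and untreated mouse skin. The skin was dorsal skin of wild-type C57BL/6 mice aged 2 months, described as female. In the library named IMQ-D5 the mice had received imiquimod on the skin each day for 5 days, a drug that activates Toll-like receptors and is used to model psoriasis, and the library named Ctrl came from control skin. The tissue was digested with collagenase D and DNase, dead cells were removed, and 3′ single-cell RNA-seq counted unique molecular identifiers (UMIs), each standing for 1 captured RNA molecule. Each condition had 1 library, and the sources used here do not say how many animals went into it. Every difference is therefore a difference between these 2 libraries, with no replicate check and no test of the treatment.

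The cells were chosen by measured values. A member had at least 200 detected genes, at most 10% mitochondrial UMIs, at least 3 Krt79 UMIs, Krt5, Krt14 and Krt17 together at 0.2% of its UMIs or more, at most 1 UMI of the follicle stem cell genes Lgr5 and Lhx2, no UMI of the leukocyte gene Ptprc, and collagen genes Col1a1 and Col1a2 under 1% of UMIs. This gave 1077 members among 18796 kept cells, of which 679 came from IMQ-D5 and 398 from Ctrl. The levels of the genes in that rule are given as descriptions. Krt79 lies at chr15:101929332-101940324 on the minus strand (GRCm38, GENCODE M21) and is a protein-coding type II keratin gene.

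The upper follicle comprises the infundibulum, which opens to the surface, the junctional zone and the sebaceous duct. Krt79 marks its inner, differentiating cells, while Lrig1, Plet1 and Gata6 mark its stem and duct cells. In inflamed epidermis, keratinocytes switch on the stress keratins Krt6a, Krt6b and Krt16, the alarmins S100a8 and S100a9, and a different set of envelope proteins.

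The label was set against the upper follicle markers. Of 9 upper follicle markers, 9 in IMQ-D5 and 8 in Ctrl were detected in at least 10% of members, and their summed level was 17912 and 29151 CPM (UMIs per 1000000 UMIs summed over the cells). Krt79 and Krt17 are in this sum and in the selection rule. The 7 markers outside the rule summed to 9688 CPM in IMQ-D5 and 14165 CPM in Ctrl members, and to 1182 and 1179 CPM in keratinocytes with 0 Krt79 UMIs. This is a description, since those cells were set apart by Krt79. Among the 7 markers, Cst6 alone gave 5677 CPM in IMQ-D5 and 10767 CPM in Ctrl members. Members were not free of markers of other keratinocytes. Basal interfollicular markers, among them the rule genes Krt5 and Krt14, summed to 12329 CPM in IMQ-D5 and 3790 CPM in Ctrl members. Outside the rule the order was mostly reversed. Krt15 had 219 CPM in IMQ-D5 and 796 CPM in Ctrl members, Ccl27a 98.1 and 353 CPM, and Col17a1 78.8 and 122 CPM. Only Ly6a was higher in IMQ-D5, at 123 and 29.6 CPM. Suprabasal markers summed to 10978 and 11274 CPM in the same order. In keratinocytes with 0 Krt79 UMIs the basal sums were 21227 and 20638 CPM, and the suprabasal sums 12527 and 13072 CPM. Leukocyte markers summed to 31.5 CPM in IMQ-D5 members and 17.4 CPM in Ctrl members, and endothelial markers to 14.2 and 7.49 CPM in the same order. Fibroblast markers were higher, at 407 CPM in IMQ-D5 and 879 CPM in Ctrl, with 5 of 6 seen in at least 10% of members in each library, and red blood cell markers summed to 371 and 602 CPM. Their part in the results was not tested. Free RNA from lysed cells, estimated from 29 markers of other cell types, made up 2.35% of the members' UMIs in IMQ-D5 and 3.47% in Ctrl. No member barcode occurred in both libraries, although 23 barcodes did among all cells.

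Members made up 7.99% of kept cells in IMQ-D5 (7.42 to 8.59) and 3.87% in Ctrl (3.50 to 4.26), a ratio of 2.07 (1.82 to 2.35). Among keratinocytes their share was 32.3% of 2099 cells in IMQ-D5 and 36.8% of 1081 cells in Ctrl, a ratio of 0.879 (0.775 to 0.997). The share thus doubled among all cells but not among keratinocytes, and the part of digestion and cell recovery in this was not tested. The keratinocytes include 659 IMQ-D5 and 53 Ctrl cells with 2 or more UMIs of Lgr5 and Lhx2. The rule bars these cells from the members. The ratio among keratinocytes depends on them and was not computed without them. Intervals here and below are exact 95% intervals for counting error only.

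Depth differed between the libraries and bears on the threshold of 3 Krt79 UMIs. Members had a median of 28067 UMIs in IMQ-D5 and 13498 in Ctrl, with 4540 and 3269 genes. The median number of Krt79 UMIs was 73 in IMQ-D5 members (3 to 1021) and 72.5 in Ctrl members (3 to 542). Per 10000 UMIs the median was 28.6 in IMQ-D5 and 64.7 in Ctrl, and members under 20 per 10000 were 42.7% in IMQ-D5 and 24.4% in Ctrl. Just inside the threshold, the 72 IMQ-D5 and 26 Ctrl members with 3 to 5 Krt79 UMIs had 441 and 1241 CPM of Cst6, a cystatin of the upper follicle. Just outside it, the 194 IMQ-D5 and 66 Ctrl cells with 1 to 2 UMIs had 569 and 703 CPM. Members with over 20 Krt79 UMIs, 490 in IMQ-D5 and 310 in Ctrl, had 7641 and 13627 CPM. The 117 IMQ-D5 members with 6 to 20 UMIs had 949 CPM. Krt14, a rule gene, stood at 11589 CPM in IMQ-D5 members with 3 to 5 UMIs, 11630 with 6 to 20 and 9009 with over 20. In IMQ-D5 cells just outside the threshold it stood at 13160 CPM. The Ctrl values were 3856, 3320 and 1356 CPM, and 8058 CPM outside. By both genes the IMQ-D5 members with 3 to 5 UMIs were like the cells just outside, so the label is less sure for them.

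Across all genes, 12196 had at least 20 UMIs over both libraries and counted as measured. A gene was called higher or lower when its CPM differed at least 2-fold and the interval of the ratio excluded 1. By this rule 885 genes (7.26%) were higher and 1289 (10.6%) lower in IMQ-D5 members than in Ctrl members, and the median log2 ratio was -0.09. The list counts in members given below are to be set against these 2 shares. In keratinocytes with 0 Krt79 UMIs, 567 in IMQ-D5 and 564 in Ctrl, 12283 genes were measured, with 808 (6.58%) higher and 1765 (14.4%) lower. Both comparisons use the same 2 libraries, so their values are given side by side.

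The libraries differed in how many members carried basal keratins. Krt5 and Krt14 are the keratin pair of cells that sit on the basement membrane. They made up a median of 1.05% of a member's UMIs in IMQ-D5 (4 of 679 members at 0) and 0.0274% in Ctrl (125 of 398 at 0). Members with at least 0.2% were 617 in IMQ-D5 (90.9%, 88.4 to 92.9) and 140 in Ctrl (35.2%, 30.5 to 40.1). The remaining members, 62 in IMQ-D5 and 258 in Ctrl, met the keratin criterion only through Krt17. Krt14 summed to 9755 CPM in IMQ-D5 members and 1885 CPM in Ctrl members, 5.18-fold higher (5.08 to 5.27), and Krt5 to 2056 and 605 CPM, 3.40-fold higher (3.29 to 3.51). Cells with 1% or more collagen, which should lack both keratins, held 34.9 CPM of Krt14 in IMQ-D5 and 14.1 CPM in Ctrl, a gap that the selection rule fixes. Krt15, a keratin of quiescent basal cells, went the other way, with 219 CPM in IMQ-D5 and 796 CPM in Ctrl, 3.64-fold lower (3.50 to 3.79). Of 13 measured basal genes 2 were higher, both of them rule genes (Krt5 and Krt14). Of the 11 outside the rule 0 were higher and 1 was lower (Krt15), and the other 10 were neither, among them the integrin gene Itga6 with a log2 ratio of 0.38.

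**Figure D1:**
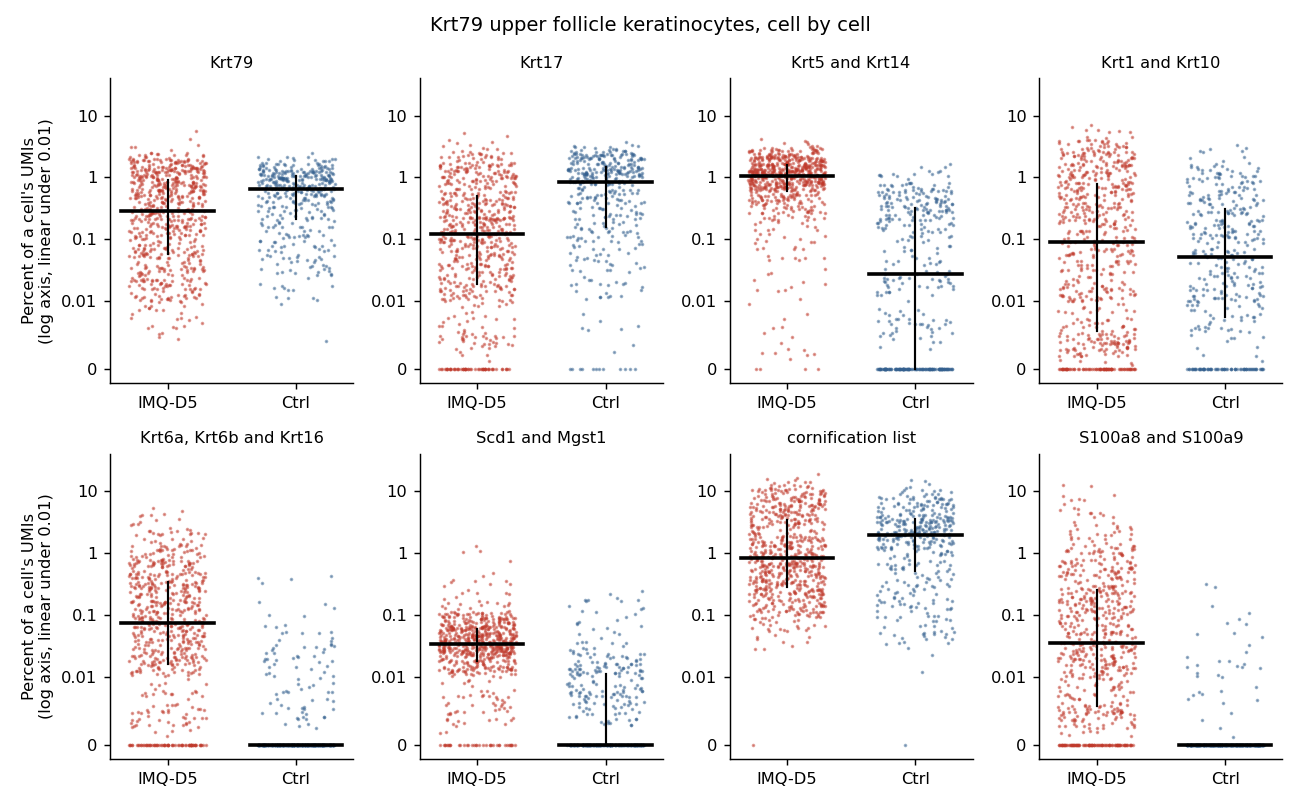
Each point is a Krt79 upper follicle keratinocyte, 679 from IMQ-D5 on the left and 398 from Ctrl on the right of each panel, plotted by the percent of its UMIs that fall on the named genes (log axis, linear under 0.01%); the thick line is the median and the thin line the middle 50% of cells. Most IMQ-D5 cells sit near 1% for Krt5 and Krt14, while 125 Ctrl cells are at 0; the stress keratins are at 0 in 308 Ctrl cells, and S100a8 and S100a9 in 361.

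The markers that name the upper follicle went in both directions, with more of them lower than higher by the 2-fold rule. Of 10 measured upper follicle genes, 1 was higher and 3 were lower (median log2 ratio -0.57). Krt79 itself stood at 4394 CPM in IMQ-D5 and 6154 CPM in Ctrl. Krt17, a keratin of the follicle that wounds also induce, stood at 3830 CPM in IMQ-D5 and 8832 CPM in Ctrl, 2.31-fold lower (2.28 to 2.33). Cst6 had 5677 CPM in IMQ-D5 and 10767 CPM in Ctrl, short of the 2-fold limit. Among the genes of duct and stem cells, Gata6 had 19.4 CPM in IMQ-D5 and 67.7 CPM in Ctrl, 3.49-fold lower (3.05 to 3.996), and Plet1 had 259 and 724 CPM, 2.79-fold lower (2.69 to 2.90). Lrig1, a junctional zone stem cell gene, was near level at 31.3 CPM in IMQ-D5 and 38.9 CPM in Ctrl. The defensin gene Defb6 had 3006 CPM in IMQ-D5 members and 1790 CPM in Ctrl members, and Klk10, a kallikrein protease, was the higher gene of the list at 63.1 and 13.2 CPM, 4.78-fold (3.83 to 6.03).

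The order of Krt79 and Krt17 depended on the cells compared. Among members with at least 0.2% Krt5 and Krt14, Krt79 stood at 3850 CPM in IMQ-D5 and 1896 CPM in Ctrl, 2.03-fold higher (1.97 to 2.09), and Krt17 at 2856 and 1711 CPM, 1.67-fold higher (1.62 to 1.72). Among members under 0.2%, Krt79 stood at 9967 CPM in IMQ-D5 and 9363 CPM in Ctrl, and Krt17 at 13813 and 14197 CPM, both near level, and here the rule itself required Krt17. The split does not make the libraries alike in basal keratins, since Krt14 stayed higher in IMQ-D5 on both sides of it. Krt5, Krt14, Krt17 and Krt79 are all rule genes, and these values are descriptions. Cst6 had 3109 CPM in IMQ-D5 and 2751 CPM in Ctrl among Krt14-rich members, near level, and 31991 CPM in IMQ-D5 and 16807 CPM in Ctrl among members under 0.2%, 1.90-fold higher (1.88 to 1.92).

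**Figure D2:**
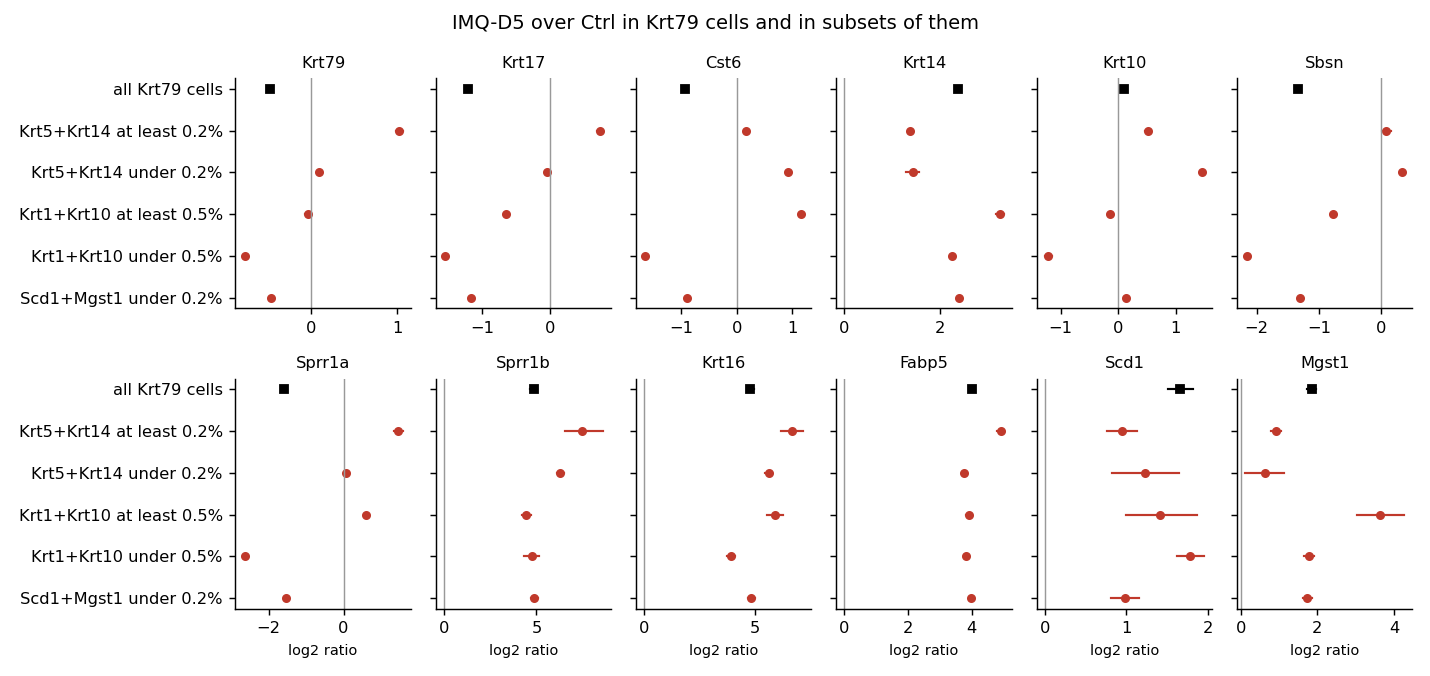
Log2 ratio of summed CPM, IMQ-D5 over Ctrl, for 12 genes in all Krt79 cells (black square) and in subsets of them set by keratin or sebaceous gene content (red points); lines are exact 95% counting intervals, mostly narrower than the symbols, and each panel has its own axis. Krt79, Krt17, Cst6, Sbsn and Sprr1a lie left of 0 over all cells and right of or near 0 in both subsets by Krt5 and Krt14, whereas Krt14, Sprr1b, Krt16, Fabp5, Scd1 and Mgst1 lie right of 0 in each subset.

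The stress keratins were among the genes with the widest gaps. Krt6a had 1483 CPM in IMQ-D5 and 39.7 CPM in Ctrl, 37.4-fold higher (33.0 to 42.5). Krt16, the partner of the Krt6 keratins, had 1551 and 55.6 CPM, 27.9-fold higher (25.1 to 31.1). Krt6b had 8420 UMIs in IMQ-D5 and 4 in Ctrl, or 364 and 0.637 CPM. The gaps were not particular to members. In keratinocytes with 0 Krt79 UMIs, Krt6a had 2559 CPM in IMQ-D5 and 54.7 CPM in Ctrl, and Krt16 had 2517 and 305 CPM. Together the 3 keratins were at 0 in 72 of 679 IMQ-D5 members and in 308 of 398 Ctrl members. Krt17, often counted with them, was the lower gene of this list of 4.

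Alarmins and protease inhibitors followed the stress keratins. S100a8, which pairs with S100a9 in the metal-binding alarmin calprotectin, had 50460 UMIs in IMQ-D5 members and 5 in Ctrl members, or 2184 and 0.796 CPM. S100a9 had 2459 CPM in IMQ-D5 and 31.7 CPM in Ctrl, 77.6-fold higher (67.5 to 89.6). In keratinocytes with 0 Krt79 UMIs, S100a8 had 4821 CPM in IMQ-D5 and 1.95 CPM in Ctrl, and S100a9 had 5730 and 7.02 CPM. Both genes are also neutrophil genes, and the other neutrophil markers were near 0: Csf3r, Cxcr2, Mmp8 and Retnlg had 2, 36, 1 and 18 UMIs in all IMQ-D5 members together. Collagen-rich IMQ-D5 cells held 21.7 CPM of S100a8, and free RNA was estimated to give members 40.9 CPM. At a common depth of 4000 UMIs, S100a8 was seen in 54.5% of IMQ-D5 members and 5.27% of IMQ-D5 collagen-rich cells, and in 0.258% of Ctrl members and 0.0354% of Ctrl collagen-rich cells. Collagen-rich cells had a median of 15207 UMIs in IMQ-D5 and 9900 in Ctrl. The antimicrobial list had 9 of 17 measured genes higher and 1 lower (median log2 ratio 1.86, against -0.09 over all genes). Without Saa3 and Hp, described below, 7 of 15 were higher and 1 lower (median 1.49). In keratinocytes with 0 Krt79 UMIs 15 of 19 genes of the full list were higher and 1 lower (median 3.35). Lcn2, an iron-sequestering lipocalin, had 356 CPM in IMQ-D5 and 56.9 CPM in Ctrl, 6.26-fold higher (5.63 to 6.98). Saa3 and Hp, acute-phase genes, were uneven: 735 of 1677 Saa3 UMIs and 202 of 226 Hp UMIs in IMQ-D5 came from 1 member each, and Ctrl had 1 UMI of either. Free RNA alone was estimated to give 90.5 CPM of Saa3, more than the 72.6 CPM seen in IMQ-D5 members, so that Saa3 is read as background there.

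Of 20 measured protease inhibitors 12 were higher and 2 lower (median log2 ratio 2.69). In keratinocytes with 0 Krt79 UMIs 13 of 20 were higher and 3 lower (median 3.11). Stefins, cysteine protease inhibitors, were high on the list. BC100530 had 3179 CPM in IMQ-D5 and 15.6 CPM in Ctrl, 204-fold higher (167 to 251), and Stfa1 had 418 and 4.30 CPM, 97.2-fold higher (66.8 to 148). In keratinocytes with 0 Krt79 UMIs, BC100530 had 7520 CPM in IMQ-D5 and 311 CPM in Ctrl, and Stfa1 had 1316 and 41.5 CPM. Stefin genes are near-identical copies, so their reads may be split between them. Serpinb3a, a clade B serpin, had 1816 UMIs in IMQ-D5 and 0 in Ctrl. Against a floor of 3 UMIs it was 164-fold higher, with a lower interval bound of 134. Spink5, which restrains the kallikreins that shed the cornified layer, was lower, with a log2 ratio of -1.38. The uncharacterised gene 2610528A11Rik had 211 CPM in IMQ-D5 and 1.91 CPM in Ctrl, 110-fold higher (63.0 to 213). The connexin gene Gjb2 had 124 and 2.87 CPM, 43.2-fold higher (27.3 to 73.0), and the connexin Gja1 150 and 15.6 CPM, 9.58-fold higher (7.84 to 11.8), while the tight junction gene Cldn4 had 22.5 CPM in IMQ-D5 and 121 CPM in Ctrl, 5.38-fold lower (4.80 to 6.02).

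**Figure D3:**
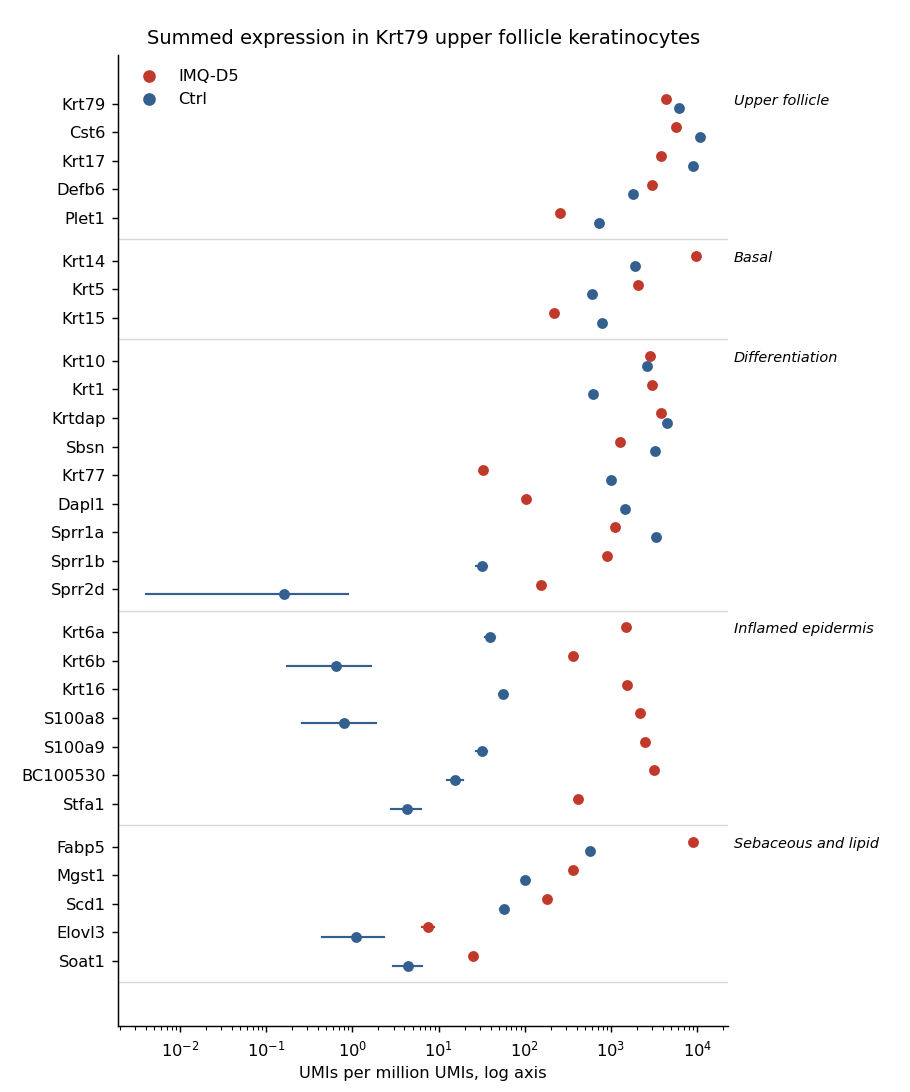
Summed CPM (log axis) of 29 genes in Krt79 upper follicle keratinocytes of IMQ-D5 (red, upper point of each row) and Ctrl (blue, lower point), with exact 95% Poisson intervals. Inflamed epidermis genes show wide gaps: S100a8 stands at 2184 in IMQ-D5 and 0.796 in Ctrl.

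Cornification genes differed in both directions. Of 59 measured entries 19 were higher and 16 lower (median log2 ratio -0.12). In keratinocytes with 0 Krt79 UMIs 21 of 60 were higher and 16 lower (median 0.24). The list has 4 measured entries for Flg, since the files hold several IDs under that symbol.

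The higher side held the small proline-rich proteins of the Sprr2 family, Sprr1b and the late cornified envelope genes of the Lce3 group, which cross-link into the envelope of stressed epidermis. Sprr2d had 3579 UMIs in IMQ-D5 and 1 in Ctrl, a ratio of 973 (174 to 38423). Sprr1b had 905 CPM in IMQ-D5 and 31.5 CPM in Ctrl, 28.7-fold higher (24.96 to 33.2). Sprr2b and Lce3f were at 0 in Ctrl, with 556 and 394 UMIs in IMQ-D5. Against the floor they were 50.4-fold and 35.7-fold higher, with lower interval bounds of 40.8 and 28.9. These transcripts came from few cells: Sprr2d was seen in 104 IMQ-D5 members, and the 10 members with most Lce3c held 98.9% of its 611 UMIs. Sprr2 copies resemble each other closely, and their single values are uncertain.

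The lower side included structural genes of normal barrier layers, and also Sprr1a, a small proline-rich protein gene like those on the higher side. Krt77, a suprabasal keratin, had 32.5 CPM in IMQ-D5 and 1003 CPM in Ctrl, 30.9-fold lower (28.6 to 33.4). Lor, the main protein of the normal cornified envelope, had 47.5 CPM in IMQ-D5 and 368 CPM in Ctrl, 7.74-fold lower (7.20 to 8.33). Sbsn, a secreted suprabasal protein, had 1275 and 3204 CPM, 2.51-fold lower (2.47 to 2.56), and Sprr1a had 1117 and 3337 CPM, 2.99-fold lower (2.93 to 3.04). 2310050C09Rik had 2 UMIs in IMQ-D5 and 407 in Ctrl. The paired keratins of the spinous layer parted: Krt1 had 3023 CPM in IMQ-D5 and 612 CPM in Ctrl, 4.94-fold higher (4.78 to 5.10), while Krt10 was level at 2820 and 2632 CPM. Krtdap, a peptide of differentiating keratinocytes, was also near level at 3812 and 4436 CPM.

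Cornification varied widely among members of the same library. The list took up a median of 0.828% of a cell's UMIs in IMQ-D5 (middle 50% of cells 0.281 to 3.40) and 1.958% in Ctrl (0.516 to 3.55). Members with Krt1 and Krt10 at 0.5% or more were 214 in IMQ-D5 (31.5%, 28.0 to 35.2) and 73 in Ctrl (18.3%, 14.7 to 22.5). Sprr1a depended on this split, with 2324 CPM in IMQ-D5 and 1522 CPM in Ctrl among Krt1- and Krt10-rich members, but 614 and 3819 CPM among the others. Cst6 did so too, with 9767 CPM in IMQ-D5 and 4359 CPM in Ctrl among rich members and 3972 and 12468 CPM among the others. Sprr1b, Krt1 and Krt14 were higher in IMQ-D5 on either side of the split. With cells thinned to 4000 UMIs, the cornification sum was higher in cells with more Krt79, at a rank correlation of 0.39 in 661 IMQ-D5 members and 0.56 in 387 Ctrl members, and lower in cells with more Krt5 and Krt14, at -0.24 and -0.77. Such cells share a library and a fixed total of UMIs, and the values are descriptions.

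The promoters of the Sprr genes are shown because members of this family were found among both the higher and the lower cornification genes. The 200 bases before the RefSeq transcript start (GRCm38.p6) were searched on both strands for TGANTCA, the core that AP-1 factors bind, and for TATAAA, the TATA box. Capitals mark matches, and each sequence reads 5′ to 3′ on the strand of the gene. Sprr2d is at chr3:92338940-92339139 on the plus strand, Sprr1b at chr3:92438780-92438979 and Sprr1a at chr3:92485882-92486081, both on the minus strand.
Sprr2d: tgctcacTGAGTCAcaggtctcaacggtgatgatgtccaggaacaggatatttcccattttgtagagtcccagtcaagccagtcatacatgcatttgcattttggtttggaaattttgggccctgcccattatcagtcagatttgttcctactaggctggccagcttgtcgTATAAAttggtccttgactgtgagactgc
Sprr1b: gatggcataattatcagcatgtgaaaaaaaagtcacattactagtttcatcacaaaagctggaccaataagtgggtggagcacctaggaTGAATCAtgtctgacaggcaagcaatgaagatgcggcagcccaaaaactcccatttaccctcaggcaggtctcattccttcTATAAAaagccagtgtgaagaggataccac
Sprr1a: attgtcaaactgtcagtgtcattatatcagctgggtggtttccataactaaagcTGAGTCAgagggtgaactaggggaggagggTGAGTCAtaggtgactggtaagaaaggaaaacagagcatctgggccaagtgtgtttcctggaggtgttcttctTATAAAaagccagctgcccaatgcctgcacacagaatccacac
In Sprr2d the AP-1 match began 193 bases before the start and in Sprr1b 111 bases before it. Sprr1a, which was lower in IMQ-D5, has matches at 146 and 116 bases. Among 12 Sprr genes with a listed promoter, 9 held an AP-1 match and 10 a TATA match, against 5.48% and 9.96% of all 32851 promoters. The Sprr2 copies share ancestry, so these counts are not independent, and a match is a string of letters and not a bound site.

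Some sebaceous genes were higher over many members, and others in few cells. Scd1 makes monounsaturated fatty acids and Mgst1 is a microsomal glutathione transferase, both strong in sebaceous glands. Scd1 had 182 CPM in IMQ-D5 members and 57.3 CPM in Ctrl members, 3.17-fold higher (2.85 to 3.54). Mgst1 had 361 and 100 CPM, 3.61-fold higher (3.33 to 3.92). In keratinocytes with 0 Krt79 UMIs the Mgst1 ratio was larger. There it had 233 CPM in IMQ-D5 and 22.6 CPM in Ctrl, 10.3-fold higher (9.09 to 11.7). Scd1 was near level in those cells, at 51.9 CPM in IMQ-D5 and 45.1 CPM in Ctrl. Neither gene is confined to sebocytes: collagen-rich cells held 54.6 CPM of Scd1 in IMQ-D5 and 98.6 CPM in Ctrl, and 486 and 256 CPM of Mgst1. At 4000 UMIs per cell Scd1 was seen in 33.9% of IMQ-D5 members and 11.9% of Ctrl members (82.3% and 29.6% at full depth), against 18.2% and 29.8% of collagen-rich cells, so Ctrl members were not above that comparison. Of 27 measured sebaceous and fatty acid genes 10 were higher and 1 (Dgat2) lower (median log2 ratio 0.47). Fewer were higher without the members rich in Scd1 and Mgst1, as given under the alternative settings. In keratinocytes with 0 Krt79 UMIs 5 of 21 were higher and 2 lower (median 0.20). In members the list summed to 10522 CPM in IMQ-D5 and 1688 CPM in Ctrl with Fabp5, and to 1501 and 1125 CPM without it.

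Members with Scd1 and Mgst1 at 0.2% of UMIs or more numbered 18 in IMQ-D5 (2.65%, 1.58 to 4.16) and 2 in Ctrl (0.503%, 0.0609 to 1.80). The 18 held 46.0% of all Scd1 UMIs in IMQ-D5 members, 94.1% of those of Soat1, an enzyme that esterifies cholesterol, 89.7% of those of the fatty acid elongase Elovl3 and 81.7% of those of Far2, which makes fatty alcohols for wax. They carried 2188 CPM of Krt79, against 4467 CPM in the other IMQ-D5 members, but 96.6 CPM of Krt17 and 133 CPM of Cst6, against 3952 and 5859 CPM. Without them, and without the 2 in Ctrl, Soat1 had a log2 ratio of -1.56 and Elovl3 of -0.48, in place of 2.48 and 2.76. Scd1 then stood at 101 CPM in IMQ-D5 and 51.1 CPM in Ctrl, 1.98-fold higher (1.76 to 2.24), and Mgst1 at 313 and 93.7 CPM, 3.34-fold higher (3.07 to 3.64). The cells were picked by Scd1 and Mgst1. A large share of Scd1 UMIs in them is fixed by that choice, which also shapes the Scd1 and Mgst1 ratios without them. Soat1, Elovl3 and Far2 were not used to pick them. Over all members the sum of Scd1 and Mgst1 had a per-cell median of 0.0335% in IMQ-D5 and 0% in Ctrl. Of 10 sebocyte markers at least 5 were found in 33 IMQ-D5 members and 10 Ctrl members, and the deeper IMQ-D5 cells have more chance to show a marker.

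Fabp5, a fatty acid carrier of both sebocytes and differentiating keratinocytes, had the largest level of the list, 9021 CPM in IMQ-D5 and 564 CPM in Ctrl, 16.0-fold higher (15.5 to 16.5). Keratinocytes with 0 Krt79 UMIs had 12299 CPM in IMQ-D5 and 630 CPM in Ctrl. Across cells thinned to 4000 UMIs, the rank correlation of Scd1 and Mgst1 with the cornification list was -0.30 in IMQ-D5 and -0.32 in Ctrl. The whole sebaceous list gave the opposite sign, 0.66 in IMQ-D5 and 0.43 in Ctrl, and without Fabp5 it gave 0.18 and 0.31. Cholesterol synthesis genes had 9 of 23 higher and 0 lower (median log2 ratio 0.51). Mvd, which makes isopentenyl pyrophosphate, had 35.0 CPM in IMQ-D5 and 9.24 CPM in Ctrl, 3.79-fold higher (2.90 to 5.03), while the entry enzyme Hmgcs1 was level at 250 and 262 CPM.

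**Figure D4:**
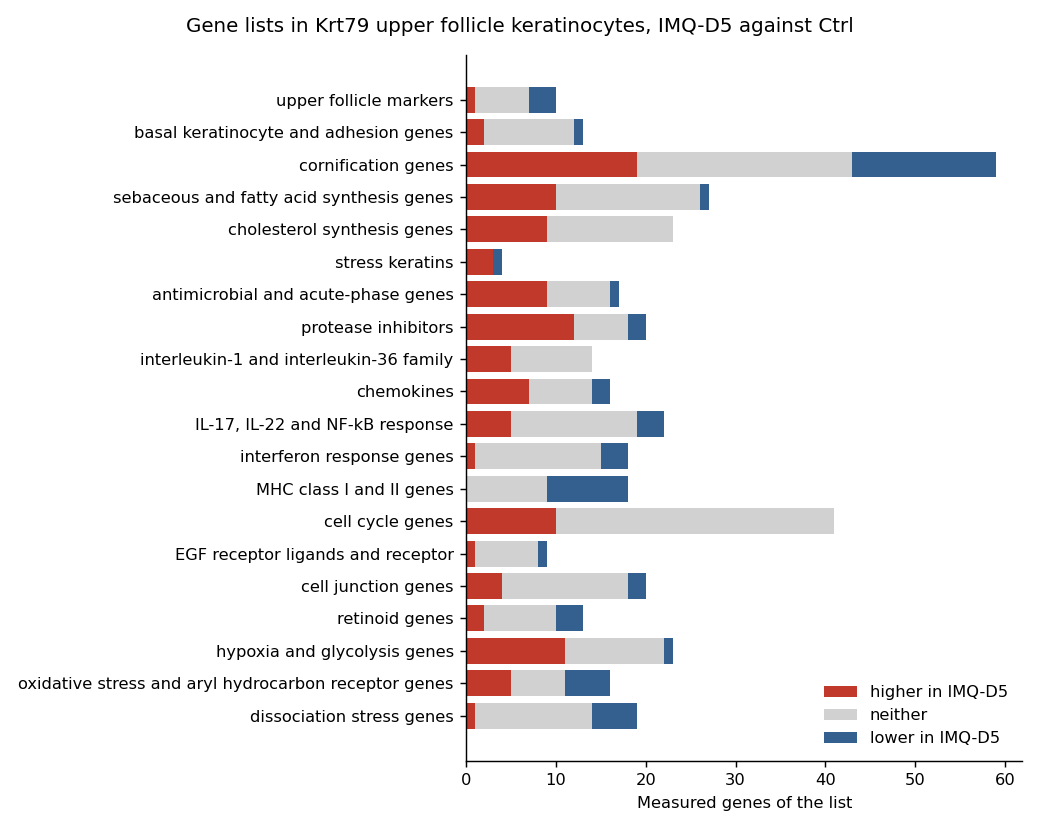
Number of measured genes per list that were higher (red), neither (grey) or lower (blue) in IMQ-D5 than in Ctrl in Krt79 upper follicle keratinocytes, by the 2-fold rule. Cornification genes split into 19 higher and 16 lower of 59, sebaceous genes into 10 and 1 of 27, and MHC genes into 0 and 9 of 18. Fewer sebaceous genes are higher without the members rich in Scd1 and Mgst1.

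Cytokine genes were higher in a small set of the list. Of 14 measured interleukin-1 and interleukin-36 family genes 5 were higher and 0 lower (median log2 ratio 0.02). Il1f6, the gene of interleukin-36 alpha, had 31.2 CPM in IMQ-D5 and 3.03 CPM in Ctrl, 10.3-fold higher (6.56 to 17.3), and Il1f9, interleukin-36 gamma, had 47.7 and 9.24 CPM, 5.17-fold higher (3.97 to 6.85). Il1f6 came from few cells, since the 10 IMQ-D5 members with most of it held 74.2% of its UMIs. For Il1f9 that figure was 13.4%. Il1f5 and Il1rn, genes of receptor antagonists, were near level at 103 and 41.9 CPM in IMQ-D5 and 121 and 48.3 CPM in Ctrl. Il24 had 461 UMIs in IMQ-D5 and 0 in Ctrl, 41.8-fold higher against the floor, with a lower interval bound of 33.8. Il19 had 349 and 4 UMIs. The 10 IMQ-D5 members with most UMIs of each gene held 44.9% of the Il24 UMIs and 66.2% of the Il19 UMIs.

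Among 16 measured chemokines 7 were higher and 2 lower (median log2 ratio 0.63). The neutrophil attractants Cxcl1 and Cxcl2 had 113 and 65.6 CPM in IMQ-D5, against 29.8 and 3.82 CPM in Ctrl, 3.79-fold (3.26 to 4.42) and 17.2-fold (11.5 to 26.9) higher. Free RNA was estimated to give 16.3 and 14.6 CPM of them in IMQ-D5 and 21.0 and 4.54 CPM in Ctrl, so the Ctrl level of Cxcl2 is background. The 10 IMQ-D5 members with most UMIs of each gene held 32.1% of the Cxcl1 UMIs and 52.3% of the Cxcl2 UMIs. In keratinocytes with 0 Krt79 UMIs 6 of 16 chemokines were higher and 3 lower (median 0.06). There Cxcl1 had 132 CPM in IMQ-D5 and 65.6 CPM in Ctrl, and Cxcl2 had 139 and 15.8 CPM. Among members Ccl27a, which draws T cells to skin, had 98.1 CPM in IMQ-D5 and 353 CPM in Ctrl, 3.59-fold lower (3.39 to 3.81). Ccl21a rested on 1 cell: 985 of its 990 UMIs in Ctrl members came from a single member, and without the member with most UMIs in each library its log2 ratio was 1.26 in place of -6.00. The IMQ-D5 level of Ccl21a, 2.47 CPM, lay under the 10.2 CPM estimated for free RNA. Of all measured genes 7.26% were higher and 10.6% lower. The response list of interleukin-17, interleukin-22 and NF-kB had 5 of 22 (22.7%) higher and 3 (13.6%) lower (median -0.04). In it Socs3, a feedback inhibitor of cytokine receptors, had 501 CPM in IMQ-D5 and 169 CPM in Ctrl, 2.96-fold higher (2.78 to 3.16), and Il6ra 5.32 and 50.6 CPM, 9.51-fold lower (7.70 to 11.8).

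Of 18 measured MHC genes 0 were higher, 9 were lower and 9 were neither (median log2 ratio -0.83). The lower ones were class I genes, peptide-loading genes and the class I regulator Nlrc5, while the class I gene H2-D1, at 506 CPM in IMQ-D5 and 794 CPM in Ctrl, was neither. H2-K1 had 458 CPM in IMQ-D5 and 950 CPM in Ctrl, 2.07-fold lower (2.01 to 2.14), B2m 590 and 1192 CPM, 2.02-fold lower (1.962 to 2.076), and Tap1, a peptide transporter, 26.2 and 67.7 CPM, 2.59-fold lower (2.28 to 2.93). B2m and H2-K1 sat at the limit: with size factors in place of UMI totals their log2 ratios were -0.91 and -0.95, short of 2-fold. The MHC counts were not particular to members. In keratinocytes with 0 Krt79 UMIs 0 of 18 MHC genes were higher and 9 lower (median -0.99). Among members 1 of 18 interferon response genes (5.56%) was higher and 3 (16.7%) lower, near the 7.26% and 10.6% of all genes. The median log2 ratio of the list was 0.19. Isg15, an interferon-induced ubiquitin-like gene, was among the lower genes, on 34 UMIs in IMQ-D5 and 23 in Ctrl, 2.49-fold lower (1.40 to 4.35).

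Cell cycle genes had 10 of 41 higher and 0 lower (median log2 ratio 0.78), against 3 higher and 1 lower of 41 in keratinocytes with 0 Krt79 UMIs. Rrm2, a subunit of ribonucleotide reductase, had 43.4 CPM in IMQ-D5 and 15.8 CPM in Ctrl, 2.76-fold higher (2.24 to 3.42). Mki67, which marks cycling cells, had 93.6 and 52.6 CPM, 1.78-fold higher (1.59 to 2.01). Among members with at least 0.2% Krt5 and Krt14, Mki67 was 102 CPM in IMQ-D5 and 117 CPM in Ctrl, close to level. Dissociation stress genes had 1 of 19 higher and 5 lower (median -0.71). Fosb had 333 CPM in IMQ-D5 and 1023 CPM in Ctrl, 3.07-fold lower (2.97 to 3.18), and the part of tissue handling in this was not tested.

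Several genes are set beside their values in keratinocytes with 0 Krt79 UMIs. Krt6b was 364 CPM in IMQ-D5 and 0.637 CPM in Ctrl among members, and 1267 CPM in IMQ-D5 and 25.6 CPM in Ctrl among the other keratinocytes. Dapl1, an early differentiation gene, had 104 CPM in IMQ-D5 and 1447 CPM in Ctrl among members, a log2 ratio of -3.81, and -4.31 in the others. Krt14 and Krt5 were called in members only, with log2 ratios of 0.46 and -0.27 in the other keratinocytes. Both are rule genes, and a cell low in Krt17 could meet the keratin criterion only through them. The rule therefore shapes this contrast. Gja1, which is not in the rule, had a log2 ratio of 3.26 in members and 0.57 in the others. Krt17 parted, lower in members at -1.21 and higher in the others at 1.36, where it had 1870 CPM in IMQ-D5 and 730 CPM in Ctrl. Abi3bp, a matrix-binding protein gene, had 3.51 CPM in IMQ-D5 members and 54.9 CPM in Ctrl members, 15.7-fold lower (12.3 to 20.2), with an IMQ-D5 level under the 3.65 CPM that free RNA could give, and a log2 ratio of -0.94 in the others. These differences between the classes carry no test.

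**Figure D5:**
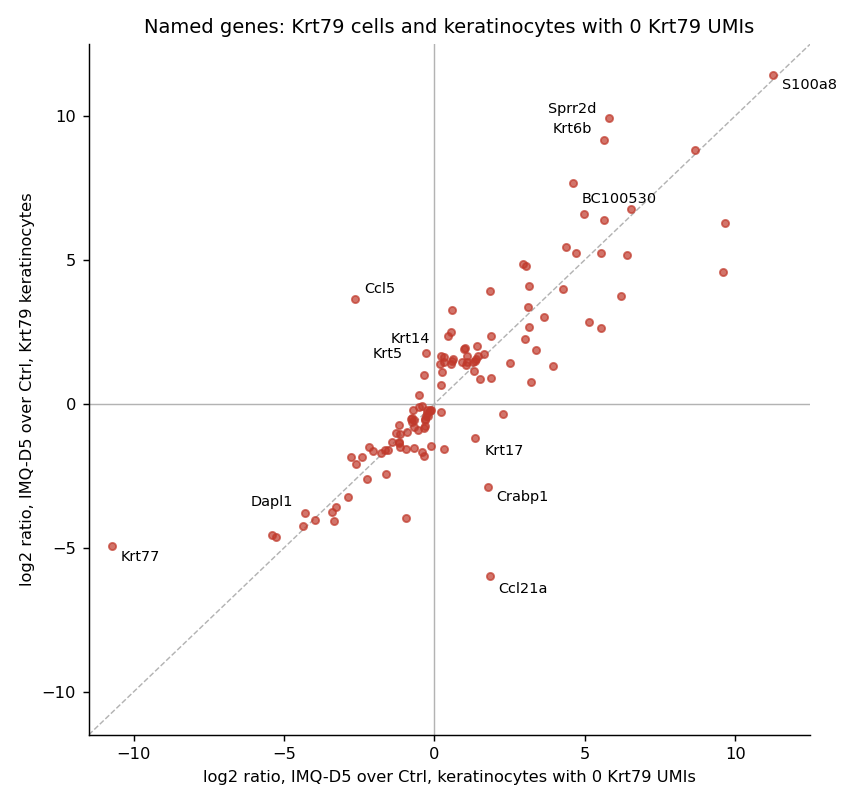
Log2 ratio of IMQ-D5 over Ctrl in Krt79 upper follicle keratinocytes (vertical) against the same ratio in keratinocytes with 0 Krt79 UMIs (horizontal) for 122 named genes with UMIs in each class and library; the dashed line marks equal ratios. Krt17, Crabp1 and Ccl21a lie below 0 in Krt79 cells and above 0 in the others, and Ccl5 the reverse.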

How the data were processed

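Skin of imiquimod-treated and control mice was profiled with 1 single-cell library per group. The deposited matrices hold whole-number UMI counts per gene and barcode, written by Cell Ranger 5.0.0 per the file headers. The submitters' processing notes name Cell Ranger 3.0.2, Seurat 2.0 and mm10, and no annotation release is given in the sources used here. The IMQ-D5 library had 9414 barcodes and 144054978 UMIs, and Ctrl had 10857 and 123088680. Members were found by fixed thresholds on the raw counts, with no clustering. Their UMIs were summed per library and scaled to CPM. Ratios carry exact conditional binomial intervals, CPM exact Poisson intervals and shares Clopper-Pearson intervals, all at 95% and for counting error only, since PCR and cell sampling are not covered. With 1 library per group no test was run. Genes at 0 in a library were compared with a floor of 3 UMIs per library sum. Free RNA was estimated from markers of other cell types. Scrublet (in scanpy 1.11.5) marked 113 of the 8499 kept IMQ-D5 barcodes and 420 of 10297 in Ctrl as doublets, of which 15 and 6 were members. They were kept in the main values.

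Named genes were the rule genes and markers, the 12 highest and 12 lowest genes with at least 100 UMIs and 50 CPM in the higher library and a level at least 3 times the free RNA estimate (mitochondrial, ribosomal, haemoglobin and Y-linked genes and Xist left out), and the extreme and most abundant members of each list. Further genes, such as Krt1, Krt10, Lor, Lcn2 and Mki67, were chosen after their values were seen. The members and gene lists were chosen with earlier results of these data known. Gene positions are from GENCODE M21 (27645 of 27998 IDs matched), and 32 of 42 genes sought had a RefSeq promoter. The counting steps were checked on simulated data. Python 3.11.15, numpy 2.4.6, scipy 1.17.1 and pandas 2.3.3 were used.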

Additional observations from a re-analysis of the deposited data

Results flagged for a closer look

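Krt17 went opposite ways in the keratinocyte classes: its log2 ratio of IMQ-D5 over Ctrl was -1.21 in Krt79 cells and 1.36 in keratinocytes with 0 Krt79 UMIs. The difference between the classes was not tested, and the selection rule uses Krt17. Ccl21a had -6.00 in Krt79 cells, where 985 of 990 Ctrl UMIs came from 1 cell. In the others it had 1.83, on 47 UMIs in IMQ-D5 and 9 in Ctrl. Crabp1, a retinoic acid carrier, had -2.88 and 1.77, with 59 of 62 Ctrl UMIs in 1 Krt79 cell. Ccl5, a T cell chemokine, had 3.64 and -2.64, with 32 of 46 IMQ-D5 UMIs in 1 Krt79 cell. These differences were likewise not tested.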

How the results depend on the processing

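Among 16 alternative settings, 95 of 110 values for shares and gene counts stayed within the limits set for a like result, 0 reversed and 15 moved. With at least 3 Krt79 UMIs per 10000 UMIs, the ratio of shares was 1.80 among kept cells and 0.764 among keratinocytes. With cells thinned to 4000 UMIs, 845 genes were lower and 11 cornification genes higher. Among members with Krt1 and Krt10 under 0.5%, 29 cornification genes were lower. Among those at 0.5% or more, 577 genes were higher, and 6 sebaceous genes were higher and 0 lower. With Scd1 and Mgst1 under 0.2%, 4 sebaceous genes were higher and 2 lower. At 4-fold, 313 genes were higher and 307 lower, 5 cornification genes lower, and 5 sebaceous genes higher and 0 lower, by construction fewer. Of 139 genes, 7 log2 ratios reversed under these settings: Ccl21a was 1.26 without its top cell, Sprr1a 0.61, Birc5 -0.70 and Cyp26b1 -0.95 in Krt1- and Krt10-rich members, Elovl3 -0.48 and Soat1 -1.56 without the Scd1- and Mgst1-rich members, and Crabp1 2.10 in members with over 20 Krt79 UMIs, a setting chosen after seeing the data. The splits by Krt5 and Krt14 and by Krt79 level are not among the 16; in them Krt17 was 0.74 at 0.2% or more Krt5 and Krt14, and 0.42 under 20 Krt79 UMIs per 10000, in place of -1.21. The cause was not tested. Of 106 called genes 80 were called under every setting that gave a value. No paired analysis was possible because each group had 1 library, and leaving out a library leaves no comparison.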

Other observations

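Of 23 measured hypoxia and glycolysis genes 11 were higher in IMQ-D5 Krt79 cells, 11 were neither and 1 (Ndrg1) was lower (median log2 ratio 0.98). In keratinocytes with 0 Krt79 UMIs 10 of 23 were higher and 0 lower (median 0.84). Gapdh, a core glycolytic enzyme, had 1781 CPM in IMQ-D5 and 633 CPM in Ctrl, 2.81-fold higher (2.72 to 2.91). Ldha, which makes lactate, had 551 and 174 CPM, 3.16-fold higher (2.97 to 3.37), and Hif1a, the hypoxia factor gene, 253 and 79.8 CPM, 3.17-fold higher (2.90 to 3.48).

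Oxidative stress and aryl hydrocarbon receptor genes split into 5 higher and 5 lower of 16. Gpx2, a glutathione peroxidase, had 54.2 CPM in IMQ-D5 and 1.43 CPM in Ctrl, 37.8-fold higher (19.8 to 82.9). Ahr, the receptor itself, had 57.2 and 161 CPM, 2.82-fold lower (2.59 to 3.06), and its target Cyp1a1 had 7 UMIs in IMQ-D5 and 55 in Ctrl. Among 13 retinoid genes 2 (15.4%) were higher and 3 (23.1%) lower, beside 7.26% and 10.6% of all measured genes. Stra6, a receptor for retinol uptake, had 1 UMI in IMQ-D5 and 49 in Ctrl. Of 9 genes for the EGF receptor and its ligands, Epgn was higher, at 38.9 CPM in IMQ-D5 and 12.7 CPM in Ctrl, and Ereg lower, at 34.7 and 150 CPM.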
